A study of Mus musculus with 4 samples.

Results

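The granins are the acidic soluble proteins of the dense-core secretory granule, the compartment in which endocrine cells store peptide hormones. The genes described here are the chromogranins *Chga* and *Chgb*, the secretogranins *Scg2*, *Scg3* and *Scg5*, the neurosecretory precursor *Vgf*, and *Pcsk1n*, which encodes proSAAS. They were taken from the deposited table of pancreatic islet RNA by gene symbol, 7 genes of 24012, and 8 of its 33923 transcript entries carried one of these symbols. *Scg3* had 2 entries with identical values, of which 1 was used. Each value is in RPKM, the reads of a transcript per kilobase of its length and scaled to the depth of the library.

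The table holds 4 RNA-seq libraries of isolated islets from wild type male C57bl6 mice aged 3 months, 2 from islets kept at 2.8 mM glucose and 2 from islets kept at 16.8 mM glucose. Collagenase isolation was followed by pooling of the islets and a night in medium with 11 mM glucose, so both groups share this culture. According to the design text all islets then spent 2 h at 2.8 mM and 12 h at the concentration of their group, whereas the labels state a treatment of 2 h at 2.8 mM and of 12 h at 16.8 mM. The conflict was not resolved, and a difference in time cannot be told apart from one in glucose if the labels are right. All libraries came from 1 pool of islets, so the tests measure the spread between 2 libraries of a group, which may be technical, and islets are a mixture in which fewer cells of a type and less RNA per cell cannot be told apart.

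Granins are made in the endoplasmic reticulum, aggregate with prohormones in the calcium-rich, acidic lumen of the trans-Golgi network and enter the granule with them, and several are cut into bioactive peptides by the same convertases that process the hormones. Chromogranin A and chromogranin B are widely used as markers of neuroendocrine cells, the islet endocrine cells included. Secretogranin III binds cholesterol in the granule membrane and holds chromogranin A there. Scg5, also known as 7B2, is a chaperone that the convertase PC2 needs to mature, and proSAAS is an inhibitor of the convertase PC1/3.

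Between 50926300 and 60683406 reads stood behind each library, as recovered from the steps of the low values. Only genes with 1 annotated transcript and 1 distinct entry were used, and each depth was the one that made the most read numbers whole. A read number within 0.05 of a whole one counted as whole. With the length from transcript start to end, introns included, this held for 72.2 to 73.2% of 692 to 732 low entries per library. With only exons, and the depth chosen anew, it held for 28.2 to 30.0% of 1270 to 1302 low entries. The former length is called the span here, and a level per kilobase is a level per kilobase of span unless it is said to be per kilobase of exon. Libraries of a group correlated at r = 0.980 over the entries tested and libraries of different groups at 0.927 to 0.939, a description across transcripts, which are not independent replicates. Beta cell hormones led the markers, with *Ins2* at 15943 to 30018 RPKM. Markers of acinar cells, the enzyme-secreting cells around the islets, summed to 102.5 and 291.8 RPKM in the 2.8 mM libraries and to 247.2 and 512.0 RPKM in the 16.8 mM libraries. All 9 of them had log2 fold changes above 0 (median 1.03) and none passed the test below. Delta cell markers summed to 597.6 and 446.9 RPKM at 2.8 mM and to 703.4 and 695.3 RPKM at 16.8 mM. Their median log2 fold change was 0.27, and none of the 3 passed. *Ppy*, of the PP cells, stood at 959.9 and 728.6 RPKM at 2.8 mM and at 1138 and 825.9 RPKM at 16.8 mM. The 4 duct cell markers summed to 18.19 to 22.86 RPKM. Of the 2 tested, *Krt7* fell at 16.8 mM (log2 fold change -0.55, limma adjusted p = 0.0150), and *Krt19* did not pass (1.15, limma adjusted p = 0.0728). None of the 4 endothelial markers reached a mean of 1 RPKM, and the leukocyte and stromal lists summed to 10.01 RPKM or less in every library. A low level per kilobase of span does not show that a cell type was absent.

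All 7 granins were abundant in the islets. By mean RPKM over the 4 libraries *Scg2* was the 18th most abundant of the 24012 genes and *Chga* the 24th, followed by *Chgb* at place 63, *Pcsk1n* at 119, *Vgf* at 212, *Scg3* at 482 and *Scg5* at 892, while 6808 genes reached a mean of 1 RPKM. The granins together gave 881.0 and 783.4 RPKM in the 2.8 mM libraries and 1227.2 and 1194.5 RPKM in the 16.8 mM libraries. In reconstructed reads this was 0.772 and 0.682% of all reads at 2.8 mM and 1.125 and 1.093% at 16.8 mM. *Scg2* and *Chga* alone held 65.2 and 67.4% of the granin reads at 2.8 mM and 59.6 and 60.4% at 16.8 mM, so their part of the granin reads was smaller in both 16.8 mM libraries.

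Neighbours in the order per kilobase of span were separated in all libraries of a group with 1 exception, *Chgb* and *Pcsk1n* at 2.8 mM, where the lower *Chgb* library (65.9 RPKM) was below the higher *Pcsk1n* library (70.5 RPKM). Exons make up 2.29% of the span of *Scg5*, 5.52% of *Scg3*, 18.7% of *Chga*, 19.9% of *Chgb*, 45.8% of *Scg2*, 47.8% of *Pcsk1n* and 83.5% of *Vgf*, and the order depends on which length is used. If all reads are taken to lie in exons, *Chga* came first with a mean of 1862 reads per kilobase of exon, scaled as RPKM, before *Scg2* (897), *Chgb* (593), *Scg5* (465), *Scg3* (358), *Pcsk1n* (146) and *Vgf* (52.3). Of the 7 genes 1, *Chgb*, held the same place in both orders. On this scale *Chgb* and *Scg5* overlapped at 2.8 mM, where the mean of *Chgb* was 0.882 times that of *Scg5*, the reverse of the order above. *Scg5* and *Scg3* overlapped at 16.8 mM.

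**Figure D1:**
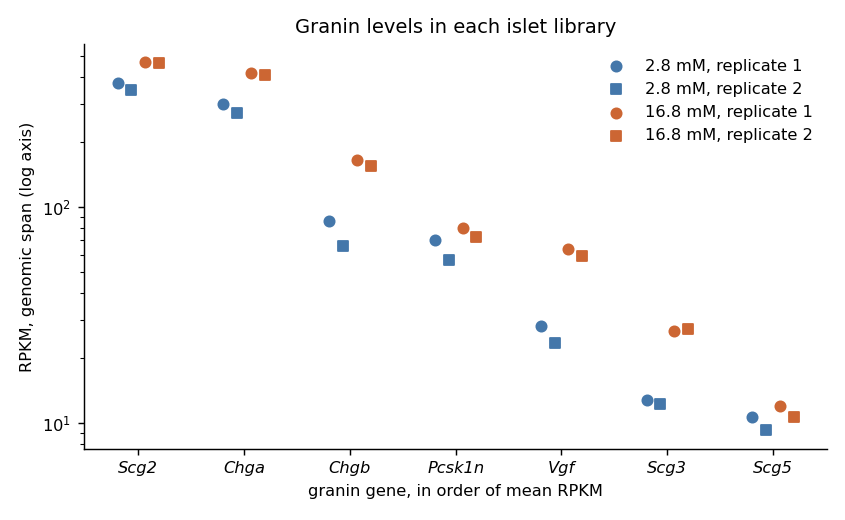
Granin levels in RPKM over the genomic span (log axis) by gene, with 1 point per library; blue marks the 2.8 mM and orange the 16.8 mM libraries, circles replicate 1 and squares replicate 2. Both orange points lie above both blue points for all 7 genes, with the narrowest gap at *Scg5* (10.6 against 10.7 RPKM).

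Upstream sequence was at hand for 6 of the 7 genes, all but *Vgf*, from RefSeq on GRCm38.p6, as windows of 250 bases before to 50 after the annotated start. The cAMP response element TGACGTCA, the site of the CREB family of factors, and the short site TGACG, its first 5 bases, were searched on both strands. The full element is its own reverse complement and contains the short site on either strand, so each full element is also counted as a short site. It was found in 2 of the 6 granin windows, *Scg2* and *Chgb*, and in 1.79% of all 32851 windows of this length. The 250 bases before the start of each, read 5′ to 3′ in the direction of the gene, are shown because the full element stands at nearly the same distance in both, 68 bases before the start in *Scg2* (chr1:79440027-79440276, minus strand) and 72 bases before it in *Chgb* (chr2:132781392-132781641, plus strand), with the element in capitals.
Scg2: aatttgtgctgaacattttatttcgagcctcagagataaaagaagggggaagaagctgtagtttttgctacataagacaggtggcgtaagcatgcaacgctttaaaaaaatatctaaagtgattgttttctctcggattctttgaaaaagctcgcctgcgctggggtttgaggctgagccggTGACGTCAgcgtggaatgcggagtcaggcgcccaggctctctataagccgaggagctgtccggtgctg
Chgb: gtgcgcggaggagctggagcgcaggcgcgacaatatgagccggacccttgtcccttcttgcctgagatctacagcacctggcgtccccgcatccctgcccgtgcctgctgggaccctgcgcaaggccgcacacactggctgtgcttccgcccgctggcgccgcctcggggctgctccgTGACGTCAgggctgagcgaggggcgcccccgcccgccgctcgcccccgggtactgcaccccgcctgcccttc

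The short site was found in 5 of the 6 granin windows and in 20.8% of all windows. In *Chga* it stood 44 bases and in *Scg3* 30 bases before the start, with no full element, and those 250 bases are shown beside the pair above, with the short site in capitals (*Chga*, chr12:102554691-102554940, plus strand; *Scg3*, chr9:75684057-75684306, minus strand).
Chga: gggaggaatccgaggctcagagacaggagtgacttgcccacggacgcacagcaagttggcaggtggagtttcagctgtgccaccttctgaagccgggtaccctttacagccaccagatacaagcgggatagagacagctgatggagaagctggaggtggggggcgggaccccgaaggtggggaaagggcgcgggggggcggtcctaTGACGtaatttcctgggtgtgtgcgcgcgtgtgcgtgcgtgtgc
Scg3: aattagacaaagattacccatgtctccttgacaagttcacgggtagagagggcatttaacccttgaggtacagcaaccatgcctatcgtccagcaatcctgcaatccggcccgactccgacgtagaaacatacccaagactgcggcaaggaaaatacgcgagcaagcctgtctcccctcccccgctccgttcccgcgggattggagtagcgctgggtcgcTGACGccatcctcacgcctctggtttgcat
*Scg5* held short sites 175 bases before and 19 and 40 bases after its start, and *Pcsk1n* held none. The E-box CACGTG was in 0 of the 6 windows against 7.15% of all, and TATAAA in 1, 5 bases after the start of *Chga*, against 13.6%. A match of letters is a description of the window only.

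The comparison of 16.8 with 2.8 mM glucose asks which transcripts of the islet respond to ambient glucose. *Vgf*, *Scg3*, *Chgb* and *Chga* rose at 16.8 mM, the first 3 of them by more than 2-fold, none of the granins fell, and *Scg2*, *Pcsk1n* and *Scg5* did not pass the test. The test was limma on log2(RPKM + 0.5) across all entries with a mean of at least 1 RPKM, with the Benjamini-Hochberg adjustment of p over the whole table at a threshold of 0.05, and fold changes are on that scale. All 7 granins reached the mean. Of 7867 entries tested, 33.4% passed in either direction, 10.7% (838) higher and 22.8% (1790) lower, against 4 of 7 granins higher and 0 lower. The median log2 fold change was 0.53 over the granins and -0.11 over all entries tested. Both 16.8 mM libraries were above both 2.8 mM libraries for 7 of 7 granins and for 22.2% of all entries, and below both for 0 granins and 48.3% of all entries. A log2 fold change of at least 1 was measured for 3 granins and for 213 entries (2.71%). Median centring moved the split of changed entries from 838 higher and 1790 lower to 1662 higher and 2103 lower, and quantile normalization to 1576 and 2154.

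**Figure D2:**
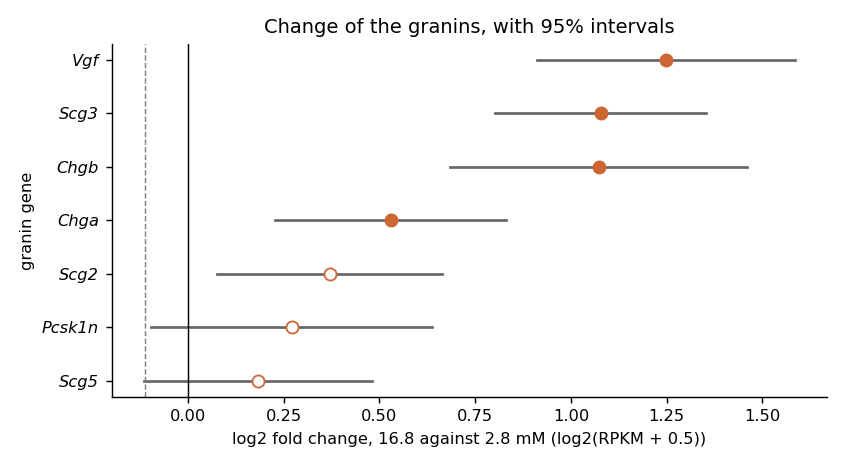
Log2 fold change of each granin between 16.8 and 2.8 mM glucose, on log2(RPKM + 0.5), with its 95% interval from limma; filled points passed the adjusted threshold, open points did not, and the dashed line is the median of all entries tested (-0.11). The 4 filled points run from 0.53 (*Chga*) to 1.25 (*Vgf*).

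*Vgf* encodes a precursor of neuroendocrine peptides and lies at chr5:137506165-137509221 on the plus strand of NCBI build 37 (mm9), with 2 exons. It measured 28.1 and 23.4 RPKM at 2.8 mM and 63.8 and 59.4 RPKM at 16.8 mM, from an estimated 3716 to 11841 reads per library. The 2 groups were far apart relative to their spread, with means of 25.7 ± 3.28 and 61.6 ± 3.14 RPKM (SD, n = 2 each). *Vgf* rose by a log2 fold change of 1.25 (SE 0.14, 95% interval 0.91 to 1.58, limma adjusted p = 0.00137), the largest of the 7 granins and the 126th largest of the 7867 entries tested.

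*Scg3*, which binds chromogranin A to the granule membrane, spans chr9:75491071-75531803 on the minus strand in 12 exons. Its libraries read 12.9 and 12.2 RPKM at 2.8 mM and 26.7 and 27.4 RPKM at 16.8 mM. Replicates differed by less than 1 RPKM in either group, and the means were 12.5 ± 0.434 and 27.0 ± 0.486 RPKM (SD, n = 2 each). The log2 fold change was 1.08 (SE 0.12, 95% interval 0.80 to 1.35, limma adjusted p = 0.00112).

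*Chgb*, chromogranin B, has 5 exons at chr2:132607014-132620815 on the plus strand. It was measured at 86.3 and 65.9 RPKM at 2.8 mM and at 164.1 and 154.4 RPKM at 16.8 mM. The 2.8 mM libraries lay further apart than those of any other granin on the log scale, replicate 2 being lower by 0.39 (log2), and the lower 16.8 mM library was still well above both. Means were 76.1 ± 14.4 and 159 ± 6.88 RPKM (SD, n = 2 each), and *Chgb* rose by 1.07 (log2, SE 0.16, 95% interval 0.69 to 1.46, limma adjusted p = 0.00396). Its fold change ranged from 0.88 to 1.27 (log2) when each library in turn was left out.

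*Chga*, chromogranin A, has 8 exons at chr12:103793179-103803237 on the plus strand. Its values were 299 and 271 RPKM at 2.8 mM and 415 and 407 RPKM at 16.8 mM, the second 16.8 mM library differing from the first by 0.03 on the log2 scale. The means were 285 ± 19.9 and 411 ± 5.63 RPKM (SD, n = 2 each), a log2 fold change of 0.53 (SE 0.13, 95% interval 0.23 to 0.83, limma adjusted p = 0.0202). The call was lost without replicate 1 of 16.8 mM (0.52, limma adjusted p = 0.119) and without replicate 2 of 16.8 mM (0.54, limma adjusted p = 0.111).

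*Scg2*, secretogranin II, the precursor of secretoneurin, was the most abundant granin per kilobase of span and has 2 exons at chr1:79431244-79436665 on the minus strand. Its libraries gave 373 and 345 RPKM at 2.8 mM and 465 and 462 RPKM at 16.8 mM. The groups did not overlap, with means of 359 ± 20.1 and 464 ± 1.80 RPKM (SD, n = 2 each). The log2 fold change of 0.37 (SE 0.12, 95% interval 0.08 to 0.66) did not pass after adjustment over the whole table (limma adjusted p = 0.0579, from 0.0206 before adjustment). It passed under 7 of 16 alternative settings, with log2 fold changes of 0.37 to 0.72 in those, the highest under quantile normalization.

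*Pcsk1n* and *Scg5* encode the partners of convertases PC1/3 and PC2. *Pcsk1n*, with 3 exons at chrX:7496948-7501536 on the plus strand, measured 70.5 and 56.6 RPKM at 2.8 mM and 80.1 and 72.7 RPKM at 16.8 mM, a log2 fold change of 0.27 (95% interval -0.10 to 0.64, limma adjusted p = 0.211). *Eras*, which overlaps it on the other strand, was at 0.0267 to 0.0591 RPKM. *Scg5*, with 6 exons at chr2:113616519-113669278 on the minus strand, measured 10.6 and 9.26 RPKM at 2.8 mM and 12.0 and 10.7 RPKM at 16.8 mM. Its replicates differed by 1.38 RPKM at 2.8 mM and 1.29 RPKM at 16.8 mM and its group means by 1.41 RPKM, and the log2 fold change was 0.18 (95% interval -0.11 to 0.48, limma adjusted p = 0.293). The upper ends of both intervals are below the changes measured for *Vgf*, *Scg3* and *Chgb*, and the differences between granins were not tested.

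Replicate 2 was below replicate 1 for 7 of 7 granins at 2.8 mM and for 6 of 7 at 16.8 mM, *Scg3* being the exception. Over all entries tested, the median of replicate 2 against replicate 1 was -0.09 (log2) at 2.8 mM and -0.10 at 16.8 mM. In both groups the acinar markers summed higher in replicate 2. Markers of beta cells moved with the granins between the groups. They summed to 22940 and 20590 RPKM at 2.8 mM and to 43910 and 41160 RPKM at 16.8 mM, and of the 10 beta cell markers 7 rose and 1 fell, with a median log2 fold change of 0.84. The alpha cell markers summed to 2219 and 1699 RPKM at 2.8 mM and to 2174 and 1541 RPKM at 16.8 mM, and of the 6 tested 1 rose and 0 fell, with a median of 0.18 and *Gcg* at -0.10 (limma adjusted p = 0.721). The part of either cell type, or of the delta, PP and acinar cells, in the granin values was not tested.

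**Figure D3:**
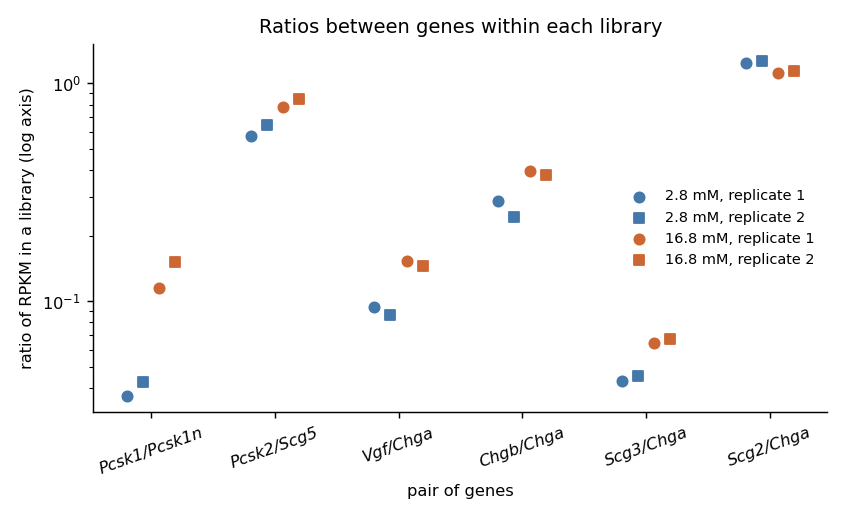
Ratio of the RPKM values of 2 genes within each library (log axis) for 6 pairs; blue marks the 2.8 mM and orange the 16.8 mM libraries, circles replicate 1 and squares replicate 2. *Scg2*/*Chga* is the 1 pair in which both 16.8 mM libraries lie below both 2.8 mM libraries.

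A ratio of 2 genes within a library is not altered by a single scaling factor for the library, though quantile normalization can alter it, so the granins were also set against each other and against their partners. With 2 libraries a group the smallest 2-sided p of an exact permutation test is 0.333, and the ratios are given without a test. *Vgf* relative to *Chga* was 0.0937 and 0.0864 at 2.8 mM and 0.154 and 0.146 at 16.8 mM, a 1.66-fold difference of the means. *Scg3* relative to *Chga* was 0.0429 and 0.0451 at 2.8 mM and 0.0642 and 0.0672 at 16.8 mM (1.49-fold). *Chgb* relative to *Chga* was 0.288 and 0.243 against 0.395 and 0.379 (1.46-fold). In each of these 3 pairs both 16.8 mM libraries lay above both 2.8 mM libraries.

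The pair *Scg2* to *Chga* went the other way, with 1.25 and 1.27 at 2.8 mM and 1.12 and 1.14 at 16.8 mM. Against *Ins2*, the major insulin transcript, *Chga* was lower at 16.8 mM (0.0165 and 0.0170 against 0.0138 and 0.0149), as was *Scg2*, at 0.767 times its ratio at 2.8 mM. Both directions against *Ins2* turn under quantile normalization, while *Scg2* to *Chga* keeps its direction. The log2 fold changes there were 0.77 for *Chga* and 0.72 for *Scg2* beside 0.00 for *Ins2* and 0.54 for *Ins1*. That method gives the same value to an entry of the same rank in every library. The 0.00 of *Ins2* is thus fixed by the method, and the turn does not measure these ratios. Against *Gcg*, the glucagon transcript of alpha cells, the ratios at 16.8 mM were 1.57 times those at 2.8 mM for *Chga*, 1.40 times for *Scg2* and 1.23 times for *Scg5*. *Vgf* to *Ins2* was higher, at 1.42 times its ratio at 2.8 mM. *Ins1* had a larger log2 fold change than any granin as deposited (1.77), and on the deposited scale *Chga* to *Ins1* at 16.8 mM was 0.423 times the ratio at 2.8 mM.

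The convertases and their granin partners differed in size of change. *Pcsk1*, which encodes PC1/3, a convertase that cleaves proinsulin, measured 2.60 and 2.40 RPKM at 2.8 mM and 9.18 and 10.9 RPKM at 16.8 mM (log2 fold change 1.81, SE 0.12, limma adjusted p = 1.8e-04). Relative to *Pcsk1n*, the transcript of its inhibitor, it went from 0.0369 and 0.0424 to 0.115 and 0.151, a 3.34-fold difference. *Pcsk2*, which encodes PC2, measured 6.12 and 5.94 RPKM at 2.8 mM and 9.35 and 9.10 RPKM at 16.8 mM (0.58, SE 0.10, limma adjusted p = 0.00679). Relative to *Scg5*, the transcript of its chaperone, it was 0.575 and 0.641 at 2.8 mM and 0.780 and 0.849 at 16.8 mM (1.34-fold). In both pairs the enzyme transcript was higher relative to its partner in every 16.8 mM library.

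Other genes of the granule were counted by list in the same fit, and each count is to be read beside the 10.7% of all entries that were higher and the 22.8% that were lower. Of the 6 prohormone processing enzymes listed, 5 were tested and 3 rose, *Pcsk1*, *Pcsk2* and *Pam* (0.87, limma adjusted p = 9.1e-04), which amidates peptides. The median of the 5 was 0.58. Of 9 genes for peptide hormone cargo, 8 were tested and 4 rose, with a median of 0.55. *Ins1* (1.77, limma adjusted p = 8.6e-05), *Iapp* (0.93, limma adjusted p = 0.00163) and *Ins2* (0.75, limma adjusted p = 0.00224) changed most, and the fourth was *Ucn3* (0.59), which did not pass without replicate 2 of 16.8 mM (limma adjusted p = 0.139). Under quantile normalization *Ins1* was at 0.54 (limma adjusted p = 0.319) and 2 cargo genes passed, while the 0.00 of *Ins2* is fixed by that method. The span of *Slco1a5* encloses *Iapp*, and their reads cannot be told apart in each other's values.

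The machinery of the granule membrane and of its making and release had medians near 0, beside the -0.11 of all entries. Among granule membrane proteins 14 were listed and 10 tested. *Ptprn*, a phosphatase-like protein of the granule membrane, rose (0.71, limma adjusted p = 0.0060), *Cpd*, a carboxypeptidase of the trans-Golgi network, fell (-0.33, limma adjusted p = 0.0205), and the median was 0.09. With 1 of 10 in either direction, the membrane list was not above the share of all entries. *Cpd* did not pass without replicate 1 of 2.8 mM (limma adjusted p = 0.118) or without replicate 2 of 16.8 mM (limma adjusted p = 0.0546). Of 16 genes listed for granule biogenesis at the Golgi, 9 were tested and 2 rose, with a median of 0.07. These were *Bsg* (0.74, limma adjusted p = 0.0108) and *Hid1* (0.35, limma adjusted p = 0.0401). *Bsg* is on the list although it encodes a chaperone of lactate transporters at the cell surface. Neither passed with no minimum mean RPKM (limma adjusted p = 0.0553 for *Bsg* and 0.0708 for *Hid1*). With each library left out in turn, *Bsg* ranged from 0.58 to 0.89 and *Hid1* from 0.28 to 0.42 (log2). Of 26 genes for trafficking and exocytosis, 13 were tested and 4 rose, and the median was 0.12. *Syt5*, a synaptotagmin of secretory vesicles, had the largest change (1.54, limma adjusted p = 2.9e-04), before *Unc13a*, a priming factor (1.16), and *Syt13* (0.66). The fourth was *Rph3al*, which binds Rab proteins on granules (0.46).

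**Figure D4:**
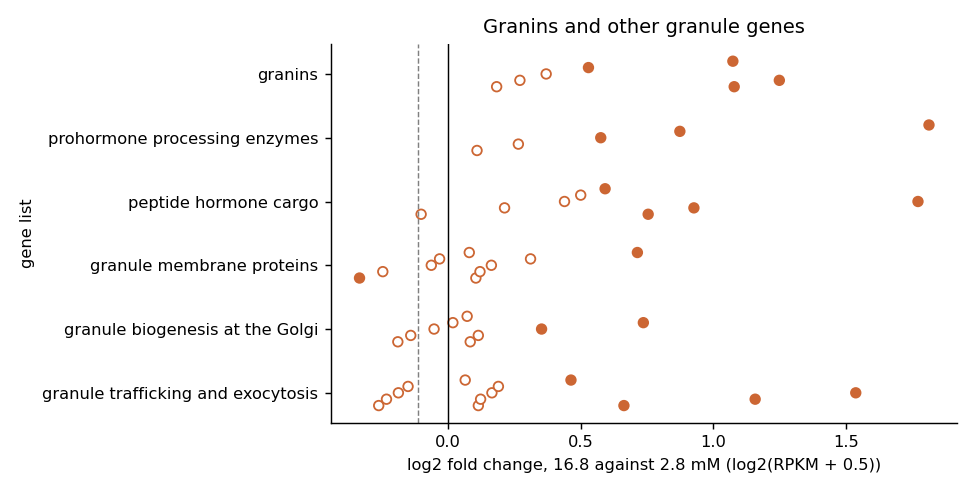
Log2 fold change between 16.8 and 2.8 mM glucose of every tested gene in 6 lists of the secretory granule, 1 point per gene; filled points passed the adjusted threshold and the dashed line is the median of all entries tested (-0.11). List medians are 0.53 for granins, 0.58 for processing enzymes, 0.55 for hormone cargo, 0.09 for membrane proteins, 0.07 for biogenesis and 0.12 for exocytosis.

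The genes most like each granin were found among 723 coding genes with a mean of at least 10 RPKM, by the Euclidean distance between log2 profiles over the 4 libraries, each centred on its own mean. With 4 libraries in 2 groups this mostly matches the size of the change and the offset between replicates. The 3 closest to *Vgf* were *Tmem215* (distance 0.103), the histone gene *Hist1h2bj* and the immediate early gene *Junb*. *Chgb* was closest to 3 histone H2B genes, *Hist1h2bc* (0.0310), *Hist1h2bj* and *Hist1h2bg*, which are near-identical copies whose reads could be shared. *Scg3* was closest to the tubulin gene *Tubb4b* (0.0598), the oxidoreductase gene *Ero1lb* and *Slco1a5*, whose span encloses *Iapp* and whose value can hold its reads. Among the closest to *Chga* were *Wdr6*, whose span overlaps *Dalrd3*, and *Hnrnpa2b1* (0.0218).

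For the granins that did not pass, the closest genes were *Trappc1*, *Ubl5* and *Atp5k* to *Scg2*, *Utp3*, *Romo1* and *Prdx1* to *Pcsk1n*, and *Ptbp1*, *Selk* and *Rraga* to *Scg5*. Among the granins themselves the closest pair was *Scg5* and *Pcsk1n* (0.125), then *Chga* and *Scg2* (0.161), with *Chgb* and *Vgf* at 0.198. The farthest pair was *Scg5* and *Vgf* (1.07).

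**Figure D5:**
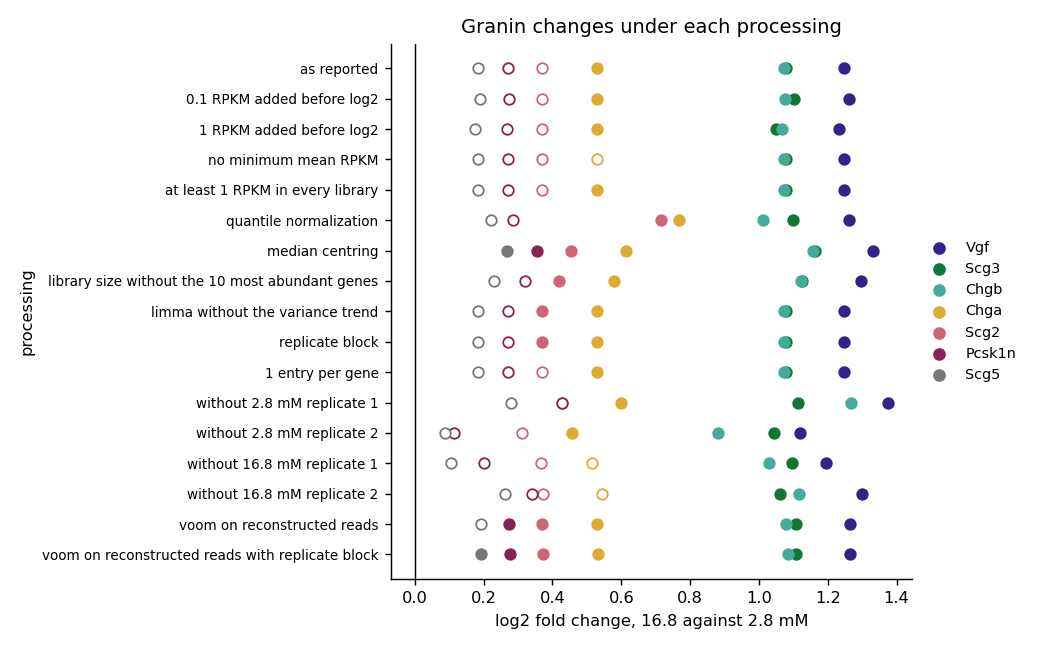
Log2 fold change of each granin between 16.8 and 2.8 mM glucose as reported and under 16 alternative settings, 1 row per setting; filled points passed the adjusted threshold. All points lie above 0, which many of the settings could not have changed, and *Chgb*, *Scg3* and *Vgf* are filled in every row.

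Direction was the same under every setting tried, but many of the settings could not have changed it. For all 7 granins each library at high glucose was above each library at low glucose. Leaving out a library, or adding another value before log2, therefore could not turn the sign. Changing the minimum, the variance trend or the entries per gene, or using replicate number as a block, left the fold changes as reported. Settings that rescale the libraries could have turned the sign and did not. All 7 granins had log2 fold changes above 0 in all 16 alternatives, and *Vgf*, *Scg3* and *Chgb* passed in 16 of 16. *Chga* passed in 13, *Scg2* in 7, *Pcsk1n* in 3 and *Scg5* in 2.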

How the data were processed

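The 4 libraries were made with a TruSeq v2 kit from total islet RNA. The authors deposited 1 table of RPKM values with 33923 entries (29217 RefSeq coding, 4561 noncoding and 145 lncRNA entries), of which 28047 were distinct, and all of its sample columns were used. Per the submitters' processing notes STAR, bedtools, DESeq and the mm9 build (NCBI build 37) were used, with no versions; the study's methods do not describe the islet libraries apart, and strand is not stated, so reads of overlapping genes may be shared. As the table holds no counts, limma was used as planned for RPKM.

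Gene positions and exons came from the GENCODE annotation of NCBI build 37, which gave a span for 87.3% of distinct entries, and upstream windows from RefSeq on GRCm38.p6, which matched 6 of the 7 granins. Of identical entries 1 was used, and each gene was represented by its entry of highest mean. The fit took entries averaging 1 RPKM or more to log2(RPKM + 0.5), in limma 3.58.1 (R 4.3.3), with a variance trend and Benjamini-Hochberg adjustment at 0.05, after tests on simulated data. Depth was recovered from entries of at most 15 reads, and read numbers are estimates from RPKM, span and depth. Summaries and figures were made with pandas 2.3.3, numpy 2.4.6, scipy 1.17.1 and matplotlib 3.10.9 under Python 3.11.15. Alternatives were other pseudocounts, minimums, scalings and models, each library left out, and limma's voom on the reconstructed reads.

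The members and lists were chosen with earlier results of these data known. Named beside the granins were *Pcsk1*, *Pcsk2*, *Ins1*, *Ins2*, up to 3 passing genes each way per list, and the 3 closest coding genes to each granin, of which 1 is not reported here; *Ucn3*, *Rph3al*, *Ppy*, *Gcg* and *Eras* were added after their values were seen.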

Additional observations from a re-analysis of the deposited data

How the results depend on the processing

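Whether the replicate numbers pair the libraries is not stated, and deviations of same-numbered libraries correlated at 0.31. With replicate number as a block, 4067 entries changed instead of 2628, 2835 of them lower, and *Scg2* passed (0.37, limma adjusted p = 0.0311). The block with voom on reconstructed reads gave 10004 changed entries of 17264 tested, 3229 higher and 6775 lower. All 7 granins changed, as did 8 of 9 listed hormone cargo, 6 of 14 membrane, 6 of 16 biogenesis and 18 of 26 exocytosis genes. List counts in this section are in either direction, to be read beside the changed share of all entries. The block with voom passed *Scg2* (0.37, voom adjusted p = 0.0023), *Scg5* (0.19, voom adjusted p = 0.0214) and *Pcsk1n* (0.28, voom adjusted p = 0.00497). These tests had 17264 entries and drew on reads, where the RPKM test had 7867 entries.

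Voom without the block gave 7331 changed entries of 17264, with 2321 higher and 5010 lower. Among the listed genes 7 of 9 cargo, 5 of 14 membrane, 4 of 16 biogenesis and 11 of 26 exocytosis genes changed. *Scg2* was at 0.37 (voom adjusted p = 0.00293) and *Pcsk1n* at 0.27 (voom adjusted p = 0.0445). Median centring changed 3765 of 7867 entries, 1662 of them higher, with 7 of 7 granins, 6 of 10 membrane, 4 of 9 biogenesis and 8 of 13 exocytosis genes. It put *Scg2* at 0.45 (limma adjusted p = 0.0113), *Scg5* at 0.27 (limma adjusted p = 0.0305) and *Pcsk1n* at 0.36 (limma adjusted p = 0.0497). Relative to the median of all entries the granins changed by the same amount as in the reported fit. Quantile normalization changed 3730 of 7867 entries, 1576 of them higher, with 2 of 8 cargo and 8 of 13 exocytosis genes. *Scg2*, the 18th most abundant gene, was at 0.72 there (limma adjusted p = 0.00518), a value that this method sets by rank in each library. *Scg2* also passed with library sizes without the 10 most abundant genes (0.42, limma adjusted p = 0.0481) and without the variance trend (0.37, limma adjusted p = 0.0257). With no minimum, 3697 of 26272 entries changed, 2 of 9 listed cargo and 0 of 16 listed biogenesis genes passed, and *Chga* did not (0.53, limma adjusted p = 0.0709). The cause of these shifts was not tested.

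The share of changed entries that were higher was 31.9% as reported, 42.3% under quantile normalization, 44.1% under median centring, 39.6% without the 10 most abundant genes in the library sizes, and 26.3 to 44.5% with each library left out in turn (26.3% without 16.8 mM replicate 1, 44.5% without 2.8 mM replicate 1). With each library left out in turn, 1131 to 2014 entries were lower (1131 without 2.8 mM replicate 1), 3 to 4 granins, 1 to 2 membrane and 0 to 1 biogenesis genes changed, and log2 fold changes were 0.46 to 0.60 for *Chga*, 0.31 to 0.43 for *Scg2*, 0.09 to 0.28 for *Scg5*, 0.11 to 0.43 for *Pcsk1n*, 0.88 to 1.27 for *Chgb*, 1.04 to 1.11 for *Scg3* and 1.12 to 1.38 for *Vgf*. A group left with 1 library was assumed to vary like the other. Per kilobase of exon, 1 of 7 granins kept its place in the order of levels. The entry with the lowest mean was not run as an alternative, since both *Scg3* entries are identical. With 2 libraries a group, an interval that includes 0, as for *Scg5* and *Pcsk1n*, does not show that a gene did not change.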
